A study of Mus musculus with 3 samples.

Results

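Potassium channel subunits were the genes whose symbol starts with Kcn followed by 1 letter and a digit, or with Kcnab, Kcnip or Kcnmb and a digit, and 91 of the 29917 genes found in the files met this rule. Of these, 87 code for a channel subunit and 4 are antisense transcripts. They were measured in brain vessels isolated from mice aged 3 months, in 3 RNA sequencing libraries. The first library came from C57BL6 WT mice, the second from C57BL6-BALB/c WT mice and the third from Cx30-/- mice, which lack connexin 30, the gap junction protein of astrocyte endfeet encoded by Gjb6. The labels give C57BL6 as the background of the Cx30-/- library, while the study's methods give the mixed C57BL6 and BALB/c background, and the allele is deleted in all tissues rather than in astrocytes alone. Each library was 1 pool of vessels from 3 male mice, so there was no replicate, no difference could be set against a spread between animals, and no test was made. The comparisons asked which channel transcripts differ between Cx30-/- vessels and each WT background.

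Potassium channels let potassium ions leave or enter a cell and so set its membrane voltage. Voltage-gated (Kv) channels repolarize neurons and smooth muscle after depolarization. Inwardly rectifying (Kir) channels hold the resting voltage and let astrocytes and endothelial cells sense and carry extracellular potassium, and tandem-pore (Kcnk) channels give a background leak. In the vessel wall, opening of potassium channels hyperpolarizes smooth muscle and pericytes and dilates the vessel. A pore is built from repeats of a short loop that carries the potassium selectivity signature, a glycine, an aromatic residue and a glycine. Auxiliary subunits (Kcne, Kcnab, Kcnip, Kcnmb) have no pore of their own and alter the gating or trafficking of the channels they bind.

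The codons of this signature are shown for the genes on which the results turn, because they are what the channel-forming members share and what sets them apart from the auxiliary subunits. Each line holds 36 coding bases, 5′ to 3′, of the GENCODE M21 transcript with the longest coding sequence (GRCm38), and capitals mark the glycine, tyrosine or phenylalanine, and glycine codons.
Kcns2 (chr15:34839600-34839635, + strand): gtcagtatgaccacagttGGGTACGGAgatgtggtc
Kcnv1 (chr15:45109280-45109315, - strand): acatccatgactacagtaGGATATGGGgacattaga
Kcna2 (chr3:107105212-107105247, + strand): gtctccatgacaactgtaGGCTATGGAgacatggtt
Kcnk9, loop 1 (chr15:72513028-72546015, - strand, split by an intron): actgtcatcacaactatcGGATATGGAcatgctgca
Kcnk9, loop 2 (chr15:72512710-72512745, - strand): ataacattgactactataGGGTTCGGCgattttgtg
Kcnj10 (chr1:172369290-172369325, + strand): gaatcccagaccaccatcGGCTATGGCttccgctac
Kcnj13 (chr1:87389012-87389047, - strand): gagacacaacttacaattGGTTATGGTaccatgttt
Kcnj8 (chr6:142566439-142566474, - strand): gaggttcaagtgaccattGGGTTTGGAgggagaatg
Kcns2 and Kcnv1, which code for silent subunits that do not form a channel alone, held the same 3 residues as Kcna2. Kcnk9 held the signature in each of its 2 loops, the second with phenylalanine in place of tyrosine, and the single signature of Kcnj8 also had phenylalanine. The pattern searched in frame was a threonine codon (ACN), any codon, GGN, then TAC, TAT, TTC or TTT, then GGN. It was found in 61 of the 72 channel-forming or silent members (84.72%), in 0 of 15 auxiliary members, and in 217 of 20426 genes with a coding sequence (1.06%). The tandem-pore genes alone had it more than once, in 11 of 14. It was found in 1 of 8 EAG (Kcnh) members and 0 of 3 SK (Kcnn) members, which says only that this spelling is not in their coding sequence.

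The deposited counts of all transcripts summed to between 50375426 and 60725557 per library, and counts were compared after division by median-of-ratios size factors (normalized counts). Intervals beside ratios are exact 95% intervals of read sampling and do not cover differences between animals. Gjb6 had 2531 normalized counts in the C57BL6 WT library, 2426 in C57BL6-BALB/c WT and 101 in Cx30-/-, so the library labelled Cx30-/- had the lowest level of the deleted gene. The tissue label was checked with marker lists of other genes. All 10 endothelial, 8 pericyte and 7 smooth muscle markers were detected in each library, but so were all 10 neuronal, 8 choroid plexus and 6 oligodendrocyte markers, none at 0. The 3 libraries were not alike in this. Summed normalized counts of the neuronal markers were 42346 in C57BL6 WT, 51553 in C57BL6-BALB/c WT and 29971 in Cx30-/-, while those of the choroid plexus markers were 185295, 76087 and 103965 in the same order and those of the endothelial markers 152583, 95519 and 186846. In such bulk samples, fewer cells of a type and less RNA per cell cannot be told apart.

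Channel transcripts took the smallest share of the Cx30-/- library. The 91 genes together held 0.398% of the counts assigned to genes in C57BL6 WT, 0.499% in C57BL6-BALB/c WT and 0.296% in Cx30-/-. At least 50 normalized counts in at least 1 library were reached by 73 of the 91 genes, and 66 reached it in every library. Levels of different genes were compared per kilobase of transcript. High mean levels over the libraries were those of Kcnt1, a sodium-activated channel, and Kcnip2, an auxiliary subunit of Kv4 channels. Kcnt1 had 1468 normalized counts per kilobase in C57BL6 WT, 2136 in C57BL6-BALB/c WT and 1369 in Cx30-/-, and Kcnip2 had 1117, 1777 and 815 on the same scale and in the same order. Both genes were highest in the C57BL6-BALB/c WT library and lowest in Cx30-/-. Kcnip3, Kcnh3, Kcnj9, Kcnab2, Kcnk1, Kcnj10 and Kcnj13 were also among the 10 highest. Of these named genes, Kcnj10, the Kir4.1 channel of astrocytes, was the one highest in the Cx30-/- library, with 601, 629 and 770.3 normalized counts per kilobase. Kcnj13, a choroid plexus channel, was highest in C57BL6 WT, with 862, 371 and 512.

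**Figure D1:**
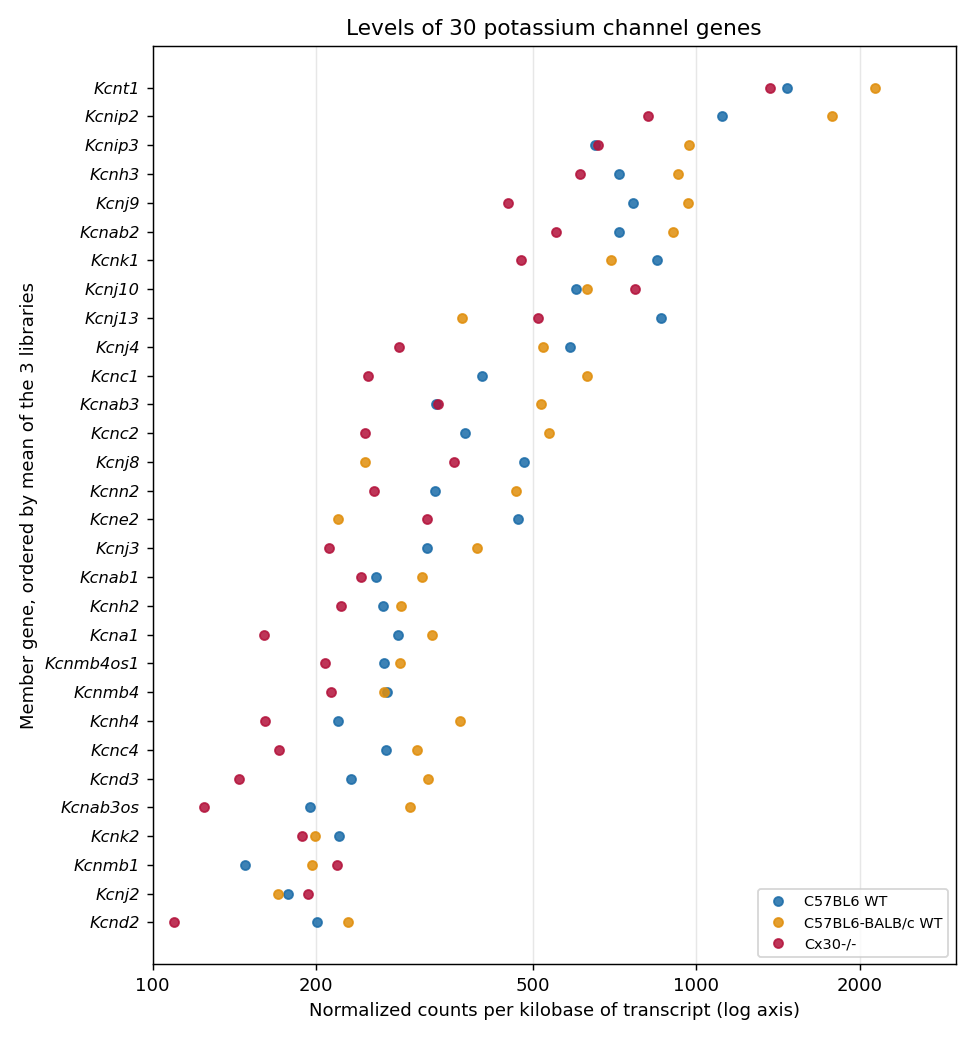
Normalized counts per kilobase of transcript (log axis) of 30 potassium channel genes with high means, 1 point per library. Kcnt1 is the uppermost gene drawn, with 2136 in C57BL6-BALB/c WT and 1369 in Cx30-/-, and for most genes the Cx30-/- point lies to the left of both WT points, with Kcnj10 as an exception.

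Potassium channel genes lay below the WT level in the Cx30-/- library in most families. A gene was called when the larger of its 2 values was 50 normalized counts or more and exceeded the smaller by 2-fold or more. Against C57BL6 WT, 8 of the 71 genes that reached the minimum were called lower and 0 higher, where 1.26% of all genes were called lower and 1.42% higher. The median log2 ratio of the 71 genes was -0.43, against -0.01 over all genes. Against C57BL6-BALB/c WT, 24 of 73 genes were called lower and 1, Kcnk5, higher, where 4.73% of all genes were called lower and 3.96% higher, and the median was -0.72, against 0.00 over all genes. In the summed counts of all transcripts, a read on a common exon enters once per transcript. Scaling by this sum in place of the size factors moved every log2 ratio of this comparison by 0.13 and gave 14 genes called lower. The calls that ended under it included those of Kcna1, Kcnc2, Kcnd2, Kcnh7, Kcnip2, Kcnj9, Kcnk10, Kcnk13 and Kcnq5. The 2 comparisons share the Cx30-/- library. Kcns2, Kcna2, Kcnv1, Kcnk9, Kcnq3 and Kcnh5, 6 of the 71 genes that reached the minimum in both, were at least 2-fold below both WT libraries, and 0 were at least 2-fold above both, where the shares of all genes were 0.681% and 0.742%. Kcna2 and Kcnv1 had over 50 normalized counts in all 3 libraries, the other 4 in the WT libraries only. The level was lowest in Cx30-/- for 53 of these 71 genes (74.6%) and highest there for 8 (11.3%), against 36.6% and 37.1% of the 14688 genes that reached the minimum.

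In the comparison with C57BL6 WT the lowest family medians were those of voltage-gated channels, though the EAG median lay above that of the Kir genes. There the median log2 ratio was -0.98 for 5 Kv1 (Kcna) genes, -0.69 for 3 Kv4 (Kcnd) genes, -0.70 for 6 silent Kv genes and -0.63 for 4 Kv3 (Kcnc) genes. It was -0.57 for 5 Kv7 genes, -0.51 for 10 Kir (Kcnj) genes, -0.44 for 7 EAG genes and -0.41 for 10 tandem-pore genes. Nearer to 0 were the 3 SK genes at -0.23, the 11 auxiliary subunits at -0.15 and the 3 Slo2 and Slo3 (Kcnt, Kcnu) genes at -0.10. Against C57BL6-BALB/c WT the medians of Kv1, Kv3, Kv4 and Kv7 (Kcnq) genes lay between -1.11 and -0.996. The EAG median there was -0.89, the SK median -0.79, the silent Kv median -0.72 and the Slo2 and Slo3 median -0.64. Tandem-pore genes had -0.53 and auxiliary subunits -0.46. That of the Kir genes was 0.01, beside their -0.51 in the other comparison. The neuronal marker genes had medians of -0.45 and -0.79 in the same comparisons, close to those of the channel genes as a whole, and the part of neuronal RNA in the channel ratios was not tested.

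**Figure D2:**
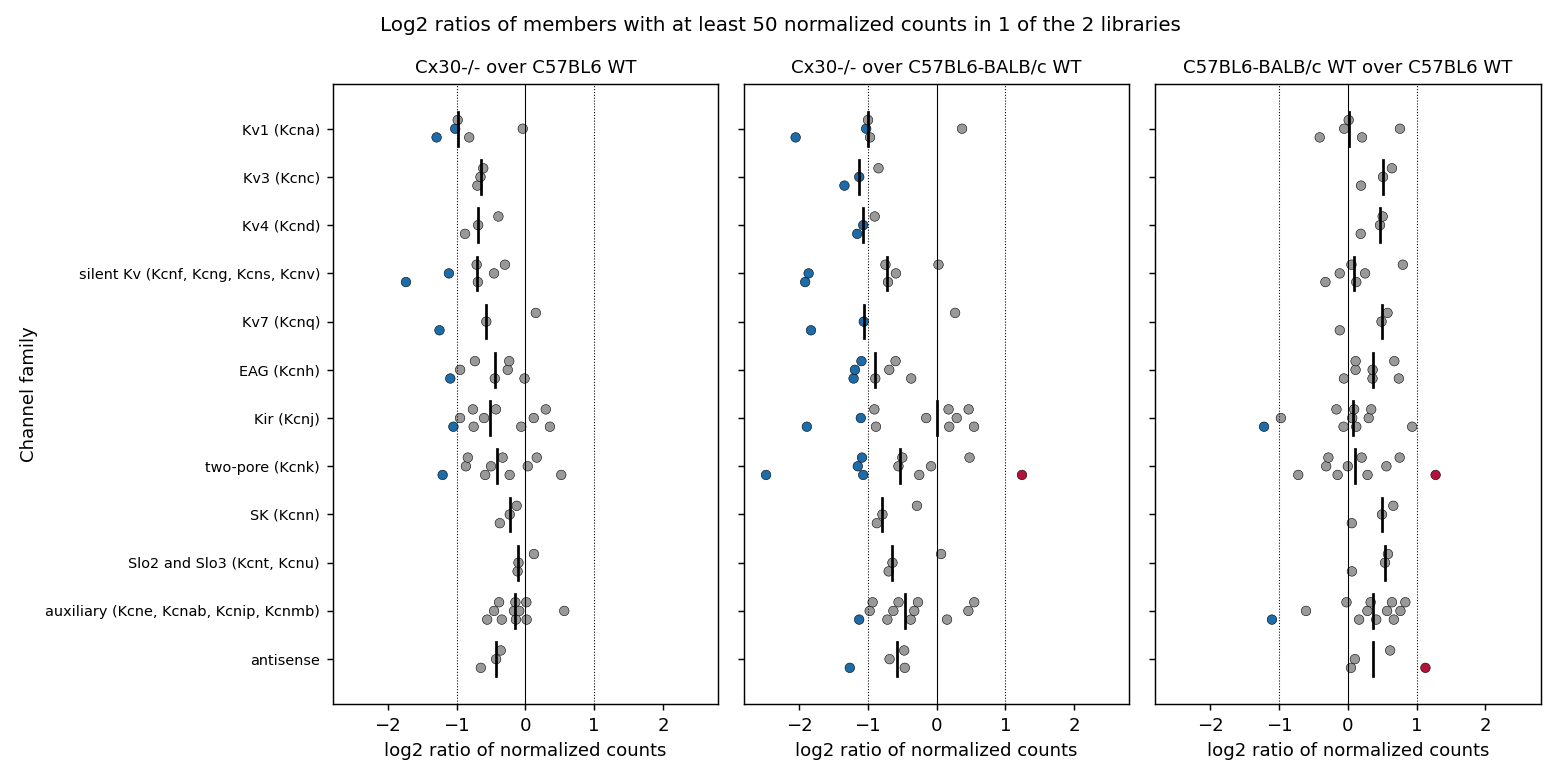
Log2 ratios of normalized counts of potassium channel genes that reached 50 normalized counts, by family, in the 3 comparisons; some genes are not drawn, black ticks are medians of the points drawn, dotted lines mark 2-fold, blue points are genes called lower and red points genes called higher. In the left and middle panels the Kv1 points have medians of -0.98 and -0.996, and the Kir points have medians of -0.51 and 0.01 and spread to both sides of 0 in both.

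The silent subunits held 2 of the 6 genes below both WT libraries. Kcns2 (Kv9.2; chr15:34837355-34843407, + strand), which joins Kv2 channels and modifies their gating, had 154 normalized counts in the C57BL6 WT library, 167 in C57BL6-BALB/c WT and 46.2 in Cx30-/-. Both WT levels were close to each other and the Cx30-/- level was at least 3.33-fold below each. The log2 ratios were -1.74 (interval -2.25 to -1.25) and -1.86 (interval -2.38 to -1.37), and the log2 ratio of the WT libraries was 0.12. Reads covered 66.6% and 71.3% of the bases of the transcript in the WT libraries and 34.0% in Cx30-/-. Kcnv1 (Kv8.1; chr15:45106284-45114920, - strand), another silent partner of Kv2 channels, had, in that order, 686, 1195 and 318 normalized counts. Here the Cx30-/- level was again lowest, but the WT libraries also differed, by a log2 ratio of 0.80. The Cx30-/- log2 ratios were -1.11 (interval -1.31 to -0.92, which reaches above -1) against C57BL6 WT and -1.91 (interval -2.10 to -1.725) against C57BL6-BALB/c WT. Of the other silent subunits that reached the minimum, Kcns1, Kcns3 and Kcng1 had log2 ratios between -0.74 and -0.46 in the Cx30-/- comparisons, and Kcng4 had -0.30 and 0.03.

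Kcna2 (Kv1.2; chr3:107101146-107115005, + strand), a channel of axons that opens at low voltage, had 164, 278 and 67.1 normalized counts in C57BL6 WT, C57BL6-BALB/c WT and Cx30-/-. The Cx30-/- level was 2.45-fold below the former WT library and 4.14-fold below the latter, with log2 ratios of -1.29 (interval -1.72 to -0.87) and -2.05 (interval -2.47 to -1.65). Kcna1 (Kv1.1), its usual partner, had 2535, 2926 and 1440.3, and was called against C57BL6-BALB/c WT alone, at -1.02 against -0.82 for C57BL6 WT. Kcna6 (Kv1.6) had 1215, 1171 and 599, nearly equal in the WT libraries, and log2 ratios of -1.02 and -0.97, just inside and just outside 2-fold. Its counted row is annotated for nonsense-mediated decay. In GENCODE M21, 2343 bases of that transcript overlap exons of a gene on the other strand (Gm26673). Reads of the 2 genes cannot be told apart there because the libraries kept no strand. Kcna4 lay just outside 2-fold in both comparisons, at -0.98 and -0.996. Kcna5 (Kv1.5), a channel of vascular smooth muscle, did not share this, with 208, 157 and 203 normalized counts.

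Kv3 channels allow fast firing of interneurons, and their transcripts ordered the libraries in one way. Kcnc1 had 4864 normalized counts in the C57BL6 WT library, 7586 in C57BL6-BALB/c WT and 2999 in Cx30-/-, with log2 ratios of -0.70 and -1.34. Kcnc2 had 2329.7, 3321 and 1524. Both were called lower against C57BL6-BALB/c WT and neither against C57BL6 WT. Among the Kv4 genes, which carry the fast-inactivating A-current of dendrites, Kcnd2 had 875, 997 and 476 and Kcnd3 had 1674, 2316 and 1041. Both were called against C57BL6-BALB/c WT, at -1.07 and -1.15, with -0.88 and -0.69 against C57BL6 WT.

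**Figure D3:**
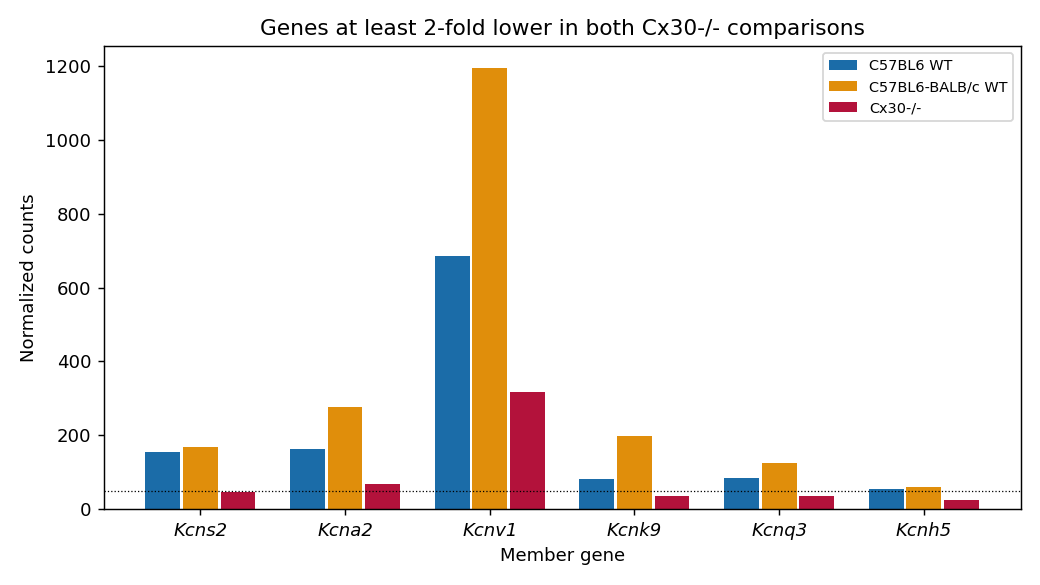
Normalized counts of the 6 potassium channel genes at least 2-fold below both WT libraries in Cx30-/-, 1 bar per library with no error bar, since each group is 1 library; the dotted line marks 50 normalized counts. Kcnv1 stands highest, with 1195 in C57BL6-BALB/c WT, and the Cx30-/- bars of Kcns2, Kcnk9, Kcnq3 and Kcnh5 lie under the line.

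Kv7 channels limit repetitive firing of neurons. Kcnq3 (chr15:65986387-66286642, - strand) had 84.7 normalized counts in the C57BL6 WT library, 126 in C57BL6-BALB/c WT and 35.7 in Cx30-/-, with log2 ratios of -1.25 (interval -1.86 to -0.67) and -1.83 (interval -2.42 to -1.26). Kcnq5 had 1171, 1645 and 789.9 and was called against C57BL6-BALB/c WT alone. Kcnq1, known from heart and epithelia, did not share this order and had 209.6, 193 and 233.

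Among the EAG genes, a group of voltage-gated channels of neurons and heart, Kcnh5 (chr12:74897220-75177332, - strand) had the fewest counts of the 6 genes below both WT libraries, with 55.9, 60.5 and 26.2 normalized counts. Its log2 ratios of -1.09 (interval -1.82 to -0.40) and -1.21 (interval -1.95 to -0.50) are accordingly wide, and both intervals reach above -1. Kcnh4 and Kcnh7 were called against C57BL6-BALB/c WT, at -1.19 and -1.09. Kcnh4 had 868, 1452 and 638 normalized counts in C57BL6 WT, C57BL6-BALB/c WT and Cx30-/-, and Kcnh7 had 1852, 2375 and 1114. In GENCODE M21 the transcript counted for Kcnh7 overlaps 696 bases of exons of Gca on the other strand. Kcnh3, the EAG gene with the highest level per kilobase, had 2581, 3315 and 2193 normalized counts and was not called.

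The Kir genes did not have a common order of libraries. Kcnj9, Kcnj3 and Kcnj6 form the G protein-gated channels of neurons, and Kcnj4 is a strong inward rectifier of forebrain neurons. Kcnj6 had 152 normalized counts in the C57BL6 WT library, 291 in C57BL6-BALB/c WT and 78.7 in Cx30-/-, and its log2 ratio was -1.89 against C57BL6-BALB/c WT and -0.95, just outside 2-fold, against C57BL6 WT. Kcnj9 had 2497, 3160.4 and 1473 and was called against C57BL6-BALB/c WT at -1.10. Kcnj4 had 1258, 1122 and 609.5 and was called against C57BL6 WT at -1.05, with -0.88 against C57BL6-BALB/c WT. Kcnj6, Kcnj9 and Kcnj4 were all lowest in Cx30-/-. In GENCODE M21, exons of genes on the other strand overlap the counted transcripts of Kcnj6 by 380 bases, Kcnj9 by 172 and Kcnj3 by 1621. Kcnj12 (Kir2.2), an inward rectifier of muscle, was also lowest there, but by little, with 278, 296 and 267 and log2 ratios of -0.06 (interval -0.30 to 0.18) and -0.15 (interval -0.40 to 0.10).

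Kcnj10, Kcnj16 and Kcnj2, known from astrocytes and endothelium, were highest in Cx30-/-. Kcnj10 (Kir4.1; chr1:172341210-172374085, + strand), which clears potassium around neurons at astrocyte endfeet, had 3252 normalized counts in the C57BL6 WT library, 3399 in C57BL6-BALB/c WT and 4165 in Cx30-/-. The Cx30-/- level was 1.28-fold and 1.23-fold above the WT libraries, with log2 ratios of 0.36 (interval 0.29 to 0.42) and 0.29 (interval 0.23 to 0.36), while the WT libraries differed by 0.06. Kcnj16 (Kir5.1), which pairs with Kir4.1, had 343, 374 and 422, in the same order of libraries. Its log2 ratios were 0.30 (interval 0.09 to 0.50) and 0.17 (interval -0.04 to 0.39), and the latter interval holds 0. Neither gene reached 2-fold, and the astrocyte marker list had medians of -0.16 and -0.04 in these comparisons. Kcnj2 (Kir2.1), the channel by which capillary endothelium senses potassium, had 965, 925 and 1050.1. Its log2 ratios were 0.12 (interval -0.003 to 0.25, which holds 0) and 0.18 (interval 0.05 to 0.32), beside endothelial marker medians of 0.22 and 0.87.

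Kcnj8 (Kir6.1; chr6:142564837-142571614, - strand), the pore of the ATP-sensitive channel of pericytes and smooth muscle, had 1058 normalized counts in the C57BL6 WT library, 539 in C57BL6-BALB/c WT and 786 in Cx30-/-. The Cx30-/- library thus lay between the WT libraries, 1.35-fold below the former and 1.46-fold above the latter, and the WT libraries differed by a log2 ratio of -0.97 (interval -1.13 to -0.82). Abcc9, the sulfonylurea receptor that completes this channel, had the same order, with 1606, 1070.4 and 1439. The pericyte markers, which include Abcc9, summed to 70055, 45511 and 76989 in the same libraries. Kcnmb1, the beta subunit that raises the calcium sensitivity of the BK channel in smooth muscle, had 619, 824 and 916, beside summed smooth muscle markers of 46270, 64821 and 60245. Its log2 ratio was 0.57 against C57BL6 WT, the highest of the members that reached the minimum in that comparison, and 0.15 against C57BL6-BALB/c WT.

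Kcnj13 and Kcne2, known from the choroid plexus epithelium that secretes cerebrospinal fluid, followed another order. Kcnj13 (Kir7.1; chr1:87386363-87394729, - strand) had 1047 normalized counts in the C57BL6 WT library, 450.4 in C57BL6-BALB/c WT and 622 in Cx30-/-. Kcne2 (chr16:92292389-92298129, + strand), an auxiliary subunit of several Kv channels, had 796, 371 and 541. Both were highest in C57BL6 WT and lowest in C57BL6-BALB/c WT, and both were called lower in C57BL6-BALB/c WT than in C57BL6 WT, at log2 ratios of -1.22 (interval -1.38 to -1.06) and -1.10 (interval -1.29 to -0.92). In Cx30-/- neither was called, with log2 ratios of -0.75 and -0.56 against C57BL6 WT and 0.47 and 0.55 against C57BL6-BALB/c WT. The 8 choroid plexus markers moved with them, with medians of -1.28 between the WT libraries, -0.61 against C57BL6 WT and 0.49 against C57BL6-BALB/c WT, and Ttr, the most abundant of them, had 137638, 52930.0 and 71366 normalized counts. The part of choroid plexus tissue in these values was not tested. In GENCODE M21, exons of Gigyf2 overlap 623 bases of the transcript counted for Kcnj13, on the other strand.

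The 250 bases before the start of both genes are shown because both moved together across the libraries (RefSeq, GRCm38.p6, in the direction of the gene, capitals marking matches to TATAAA or CCAAT on either strand).
Kcnj13 (chr1:87394730-87394979, - strand): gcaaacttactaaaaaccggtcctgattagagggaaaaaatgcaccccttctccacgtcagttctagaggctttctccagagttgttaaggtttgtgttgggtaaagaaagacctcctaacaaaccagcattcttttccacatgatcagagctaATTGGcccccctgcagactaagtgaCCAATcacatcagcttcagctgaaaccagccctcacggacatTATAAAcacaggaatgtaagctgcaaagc
Kcne2 (chr16:92292139-92292388, + strand): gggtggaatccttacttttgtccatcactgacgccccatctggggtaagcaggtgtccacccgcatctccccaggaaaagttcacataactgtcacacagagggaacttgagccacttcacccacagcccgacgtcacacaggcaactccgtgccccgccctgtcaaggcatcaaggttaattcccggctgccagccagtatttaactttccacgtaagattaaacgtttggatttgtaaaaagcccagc
Kcnj13 had TATAAA at position -29 from its start and a match to CCAAT on each strand, whereas Kcne2 had no match to either at this start or at its second annotated start. TATAAA was found in 12.37% of 32851 promoters of this length and in 3 of the 91 promoters of the 66 members with an entry, and CCAAT in 33.85% and in 27 of 91.

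**Figure D4:**
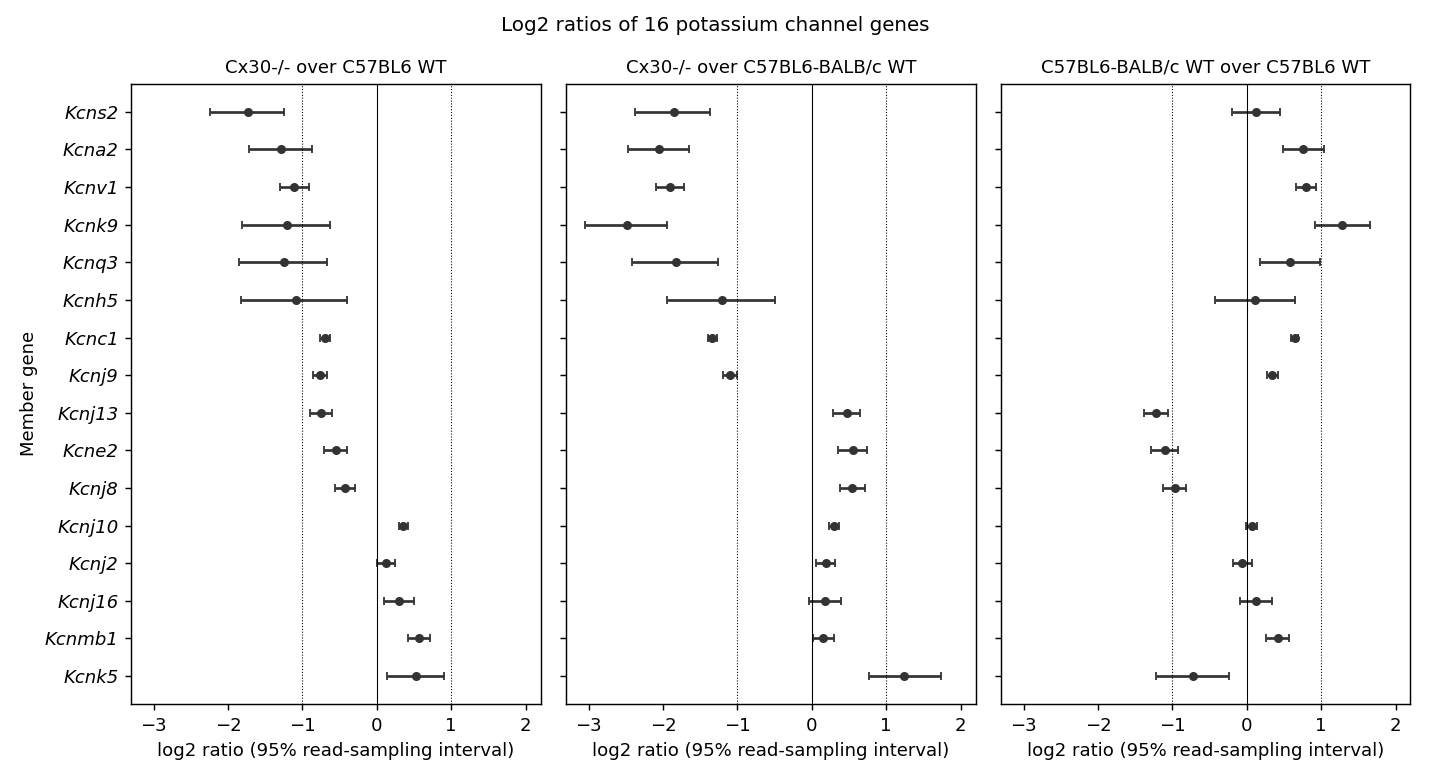
Log2 ratios of 16 potassium channel genes in the 3 comparisons, with 95% read-sampling intervals as bars and dotted lines at 2-fold. The points of the 6 uppermost genes lie below -1 in both Cx30-/- comparisons, though some of their bars reach above -1. Kcnj10 lies just above 0 in both, and Kcnj13 and Kcne2 lie below -1 only between the WT libraries.

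Tandem-pore genes diverged from each other. Kcnk9 (TASK-3; chr15:72501089-72546340, - strand), an acid-sensitive leak channel of neurons, had 82.1 normalized counts in the C57BL6 WT library, 199 in C57BL6-BALB/c WT and 35.7 in Cx30-/-. Its log2 ratio of -2.48 (interval -3.05 to -1.94) against C57BL6-BALB/c WT was the lowest of the members that reached the minimum, it was -1.20 (interval -1.81 to -0.62) against C57BL6 WT, and the WT libraries themselves differed by 1.28. Kcnk4, Kcnk10 and Kcnk13 were called lower against C57BL6-BALB/c WT alone, at -1.15, -1.08 and -1.07. Kcnk4, a mechanosensitive channel, had 277, 408 and 185, its relative Kcnk10 had 67.2, 113 and 53.5, and Kcnk13, known from microglia, had 113, 129.6 and 61.9. Kcnk1, the tandem-pore gene with the highest level per kilobase, had 1676, 1378 and 939 and was not called. Kcnk5 (TASK-2), known from epithelia, went the other way, with 94.3, 57.2 and 135. It was called higher against C57BL6-BALB/c WT at 1.24 (interval 0.77 to 1.73), with 0.52 against C57BL6 WT. Kcnk6, Kcnk3 and Kcnk2 stayed within 1.5-fold in all 3 comparisons.

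By family median, calcium-activated and sodium-activated channels differed less from C57BL6 WT than the voltage-gated ones. This did not hold against C57BL6-BALB/c WT, where the SK median of -0.79 lay below the silent Kv median of -0.72. Kcnn2, the SK gene with the highest level, had 892, 1259 and 690.3 normalized counts in C57BL6 WT, C57BL6-BALB/c WT and Cx30-/-, with log2 ratios of -0.37 and -0.87. Kcnt1 had 8633, 12563 and 8054, almost level between C57BL6 WT and Cx30-/- (-0.10) and lower in Cx30-/- than in C57BL6-BALB/c WT (-0.64). Neither passed 2-fold.

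Of the auxiliary subunits, 1 of 12 (8.33%), Kcnip2, was called lower against C57BL6-BALB/c WT, where 4.73% of all genes were. Against C57BL6 WT it was 0 of 11, where 1.26% of all genes were called lower. Kcnip2, which raises the surface level of Kv4 channels, had 3479.8, 5533 and 2538 normalized counts, with log2 ratios of -0.46 and -1.13, and its counted row is an intron-retaining transcript. Kcnip3, a calcium sensor that also acts as a repressor of transcription, had 1783, 2648 and 1805, and Kcnab2, a beta subunit of Kv1 channels, had 2542, 3200.4 and 1950.2. All 4 Kcnip and all 3 Kcnab genes were higher in C57BL6-BALB/c WT than in both other libraries. Of the antisense transcripts, Kcnab3os had 110.0, 169 and 70.3 and was called lower against C57BL6-BALB/c WT, and Kcnd3os had 26.2, 57.2 and 35.7. Kcnmb4os1, the antisense transcript with the highest level, had 219, 236 and 171. In GENCODE M21 each overlaps exons of its sense gene, by 147, 165 and 355 bases respectively, and the strands cannot be told apart there.

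The WT libraries differed from each other for fewer channel genes. Of 73 genes, Kcnk9 and Kcnd3os were called higher in C57BL6-BALB/c WT and Kcnj13 and Kcne2 lower, where 1.41% of all genes were called higher and 2.02% lower. The median log2 ratio was 0.25, against 0.00 over all genes, and the neuronal markers had a median of 0.23 in this comparison. The 18 members under 50 normalized counts in every library are not described by ratios. Of these, Kcnk16 had 0 counts in all 3 libraries, which allows up to 3 counts in each, Kcnh8 had 0 in C57BL6 WT and Kcnk15 had 0 in Cx30-/-. Another 6 genes that match the rule by symbol (Kcnb2, Kcnf1, Kcnj11, Kcnmb3, Kcnn4 and Kcnq1ot1) were not analysed here.

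Potassium transport depends on partners outside the rule, and 33 of these were listed, of which 31 reached the minimum in each Cx30-/- comparison. Against C57BL6 WT, Atp1a4 was called higher and Gjb6 itself lower, where 1.42% of all genes were called higher and 1.26% lower. Against C57BL6-BALB/c WT, Atp1a4 was again higher, and 6 of the 31 genes were lower. Of all genes, 3.96% were called higher and 4.73% lower there. Besides Gjb6 they included Dpp6, a Kv4 partner, Lrrc26, a BK partner, and the pacemaker channel Hcn4. Dpp6 had 3089, 4087 and 2019 normalized counts in C57BL6 WT, C57BL6-BALB/c WT and Cx30-/-. Kcnma1, the BK pore with which Kcnmb1 assembles, had 2630.1, 3332 and 2082. The pore transcript was thus lowest in Cx30-/- while the smooth muscle beta subunit was highest there. Summed neuronal markers had the order of Kcnma1, with 42346, 51553 and 29971, while smooth muscle markers, with 46270, 64821 and 60245, did not. The cell type behind the Kcnma1 counts was not tested. Atp1a4 rested on 4.4, 29.2 and 59.8 normalized counts. The median of the 31 partners was -0.31 against C57BL6 WT and -0.42 against C57BL6-BALB/c WT. Of the remaining marker lists, the microglial one had medians of -0.20 and 0.10 in these comparisons, the oligodendrocyte one -0.40 and -0.33, the ependymal one 0.60 and 0.86, and the red cell one 1.28 and 2.05.

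**Figure D5:**
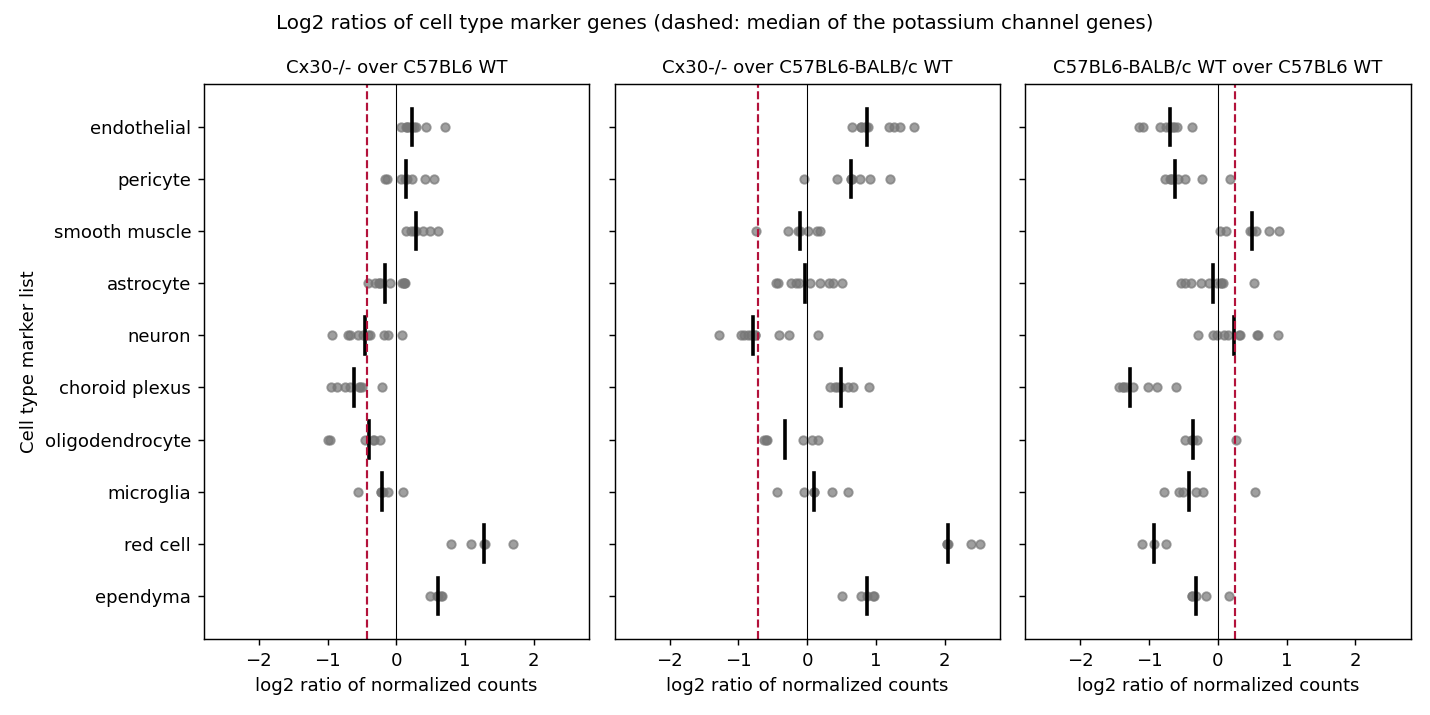
Log2 ratios of cell type marker genes, none of them potassium channel genes, in the 3 comparisons; each point is a gene, black ticks are list medians, and the dashed line is the median of the potassium channel genes (-0.43, -0.72 and 0.25). Of the 10 list medians the neuronal one lies closest to the dashed line in each comparison (-0.45, -0.79 and 0.23), while the red cell markers lie highest in both Cx30-/- comparisons.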

How the data were processed

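Polyadenylated RNA of isolated brain vessels was sequenced in 3 libraries, with 1 pool of 3 mice per group, grouped by the sample titles. According to the study's methods, the authors trimmed and filtered the reads with Eoulsan 1.1.6, aligned them to mm10 with Bowtie 0.12.7 and removed reads that matched more than once. The submitters' processing notes also name CASAVA 1.8.2. The deposited tables list 82813 Ensembl transcripts, each with its raw count of aligned reads on exons, taken without regard to strand. A second deposited column gives the count divided by a library total (20654144 to 24830975) as a fraction, which served only to check the tables, and another gives the bases without a read. Transcripts with a common exon each counted its reads.

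Gene names came from GENCODE M21 by transcript identifier (69375 transcripts, 29917 genes). Exon overlaps between genes were read from the GENCODE M21 exons of the same identifiers, which can differ from the deposited transcripts that were counted. Not all such overlaps are given with the values above. Other members with exons of another gene on the opposite strand include Kcnq5 (237 bases), Kcnk1 (179 bases) and Kcnn2 (284 and 323 bases). Deposited positions reach 197054592 on chromosome 1, past the last gene end of GRCm38 (195323493), and 1091 of the 82813 transcripts have their GENCODE M21 start. As a whole these positions are therefore not on mm10 (GRCm38), the build named in the methods, and their build was not determined. All coordinates given here are those of GENCODE M21 or RefSeq on GRCm38. Each gene took its transcript with the largest total count, and 37 of the 91 members had more than 1. For normalization, median-of-ratios size factors were used (1.1452 for C57BL6 WT, 0.9258 for C57BL6-BALB/c WT and 0.9532 for Cx30-/-), computed over all genes. No pseudocount was added and no test was run. Intervals are exact conditional binomial (Clopper-Pearson) 95% intervals of the 2 raw counts (scipy 1.17.1, Python 3.11.15). They and the limit of 3 counts for a count of 0 cover counting error only. The calculation was tested on simulated counts. TMM factors were computed with edgeR 4.0.16 in R 4.3.3 as an alternative normalization, and further alternatives were other scalings, count minimums, ratios, transcripts per gene and a pseudocount of 1.

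The members, gene lists and marker lists were chosen with earlier results of these data known. Named with a value in each library were Kcns2, Kcnj8, Kcnj10 and Kcnj13, every member called in any comparison, the member with the highest level per kilobase in each family, and the 10 highest by mean level, except some genes that are not reported here. Kcna4, Kcna5, Kcng1, Kcng4, Kcnh8, Kcnj2, Kcnj3, Kcnj12, Kcnj16, Kcnk2, Kcnk3, Kcnk6, Kcnk15, Kcnk16, Kcnmb1, Kcnq1, Kcns1 and Kcns3 were named besides, after their values were seen.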

Additional observations from a re-analysis of the deposited data

How the results depend on the processing

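With 1 library per group, no library could be left out. No paired analysis was possible because each group holds 1 library and no test was made. The 6 genes below both WT libraries were the same under TMM factors, total count, upper quartile, size factors of the 2 compared libraries and a pseudocount of 1, and the sum of a gene's transcripts or its longest transcript added Kcnj6. Requiring 50 normalized counts in both libraries left 2 (Kcna2 and Kcnv1), a minimum of 100 left 3 (these and Kcns2), no minimum gave 11 lower and 1 higher, and a ratio of 1.5 gave 26 lower. Against C57BL6 WT, 8 called lower became 14 with no minimum, 4 with 50 in both libraries, 5 with a minimum of 100 and 28 at a ratio of 1.5, and 0 called higher became 3 with no minimum. Against C57BL6-BALB/c WT, 24 called lower became 14 under total count, which shifts every log2 ratio by 0.13, and 45 at a ratio of 1.5, and 1 called higher became 5 with no minimum and 2 with summed transcripts. Between the WT libraries, 2 called higher became 7 with no minimum, 1 with 50 in both libraries, with a minimum of 100 or with a mean over the 3 libraries of at least 50, and 17 at a ratio of 1.5, while 2 called lower became 5 at a ratio of 1.5. The minimum on the mean was chosen after seeing the data; under it 7, 23 and 5 genes were lower against C57BL6 WT, against C57BL6-BALB/c WT and against both. Fewer genes reach a stricter minimum and more pass a smaller ratio by construction. Of 819 single-gene log2 ratios recomputed, 774 stayed within their read-sampling interval, 45 moved outside it (37 of them under total count) and 0 of the called values changed sign. Depth limited the genes under 100 normalized counts most, such as Kcnh5.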

Other observations

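Of 199 transcripts of the members in the files, 108 were not used above because another transcript of the same gene had more counts. Of these, 9 were at least 2-fold below both WT libraries in Cx30-/- although the transcript used for their gene was not. They included a transcript each of Kcna6 and Kcnj6. The Kcna6 transcript ENSMUST00000112242, which codes for protein, had 352 normalized counts in the C57BL6 WT library, 378 in C57BL6-BALB/c WT and 135 in Cx30-/-, and the nearer of its log2 ratios to 0 was -1.38. The Kcnj6 transcript ENSMUST00000099508 had 71.6, 138 and 30.4 normalized counts, and the nearer ratio was -1.24. Reads on an exon held in common were counted once per transcript, so these values are not independent of those of the transcript used. Whether the transcripts of a gene differ between the libraries was not tested.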
